A study of Mus musculus with 10 samples.

Results

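Among 10 RNA sequencing libraries from mouse lung tumors, 3 of the 5 libraries labelled Glut1-KO had less Slc2a1 transcript, which encodes the glucose transporter Glut1, than any of the 5 control libraries. These 3 libraries, Glut1-KO replicates 1, 2 and 3, were chosen by that rule on counts per M of the library total (CPM; M, mega), and they are compared here with the 5 controls over autosomal genes. Glut1-KO replicates 4 and 5 did not meet the rule, and their values are given for the genes that lead a result. The same 3 libraries are those labelled female, whereas all 5 controls and Glut1-KO replicates 4 and 5 are labelled male.

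All tumors arose in KP mice, a conditional model of lung adenocarcinoma with 2 floxed copies of p53, on a C57BL/6 background. Glut1-KO mice (KPG1) carried in addition floxed Glut1 on both alleles (homozygous fl/fl). The genotype label of every control library reads heterozygous fl/wt, while the study's methods state that wild-type as well as heterozygous mice served as controls. In every group, Cre was delivered into the airways by the adenovirus Ad5CC10-Cre, whose promoter restricts recombination to CC10-positive cells, the secretory club cells of the bronchioles. Cells that do not express CC10, such as endothelium, stroma and leukocytes, therefore keep Slc2a1 intact. Tumors were macrodissected at 20 weeks and 1 day after initiation, dissociated into single cells and depleted of CD45-positive immune cells on magnetic beads before RNA extraction. The animals' age is not given in the labels.

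The design confounds several features of the 3 libraries. Low Slc2a1 and female sex coincide in them, no female control exists, and the effects of these features cannot be told apart. The homozygous fl/fl genotype also separates them from the controls, whose label reads heterozygous fl/wt. The homozygous genotype is shared by Glut1-KO replicates 4 and 5, which are male and have Slc2a1 inside the control range. A further number in the deposited names could denote the animal, but the labels leave its meaning unstated. The 5 controls carry 2 such numbers (replicates 1, 2 and 5 share one, replicates 3 and 4 the other), the 3 female Glut1-KO libraries carry 3, and the 2 male Glut1-KO libraries share 1. If the number marks an animal, the controls come from 2 animals only, and the p-values below, which treat libraries as independent, could be too small. The consensus correlation within that number was -0.149. Fits that used the number gained calls in 1 form and lost higher calls in another, as given at the end. Library totals ran from 35.3 to 49.8 M counts. Control 2 had the largest total and stood apart from the other controls in its alveolar type 2 markers, with a summed level of 35950 CPM against 71610 CPM or more in the other controls. Among the tissue's markers, Epcam (pan-epithelial) stood at 351 to 617 CPM in controls and 370 to 526 CPM in the 3 female libraries, and Sftpc (surfactant protein C) at 6311 to 36495 and 24999 to 29562 CPM, so lung epithelial transcripts were present in every library.

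Glut1 is a facilitative transporter that carries glucose across the plasma membrane, and hexokinase then traps the sugar in the cell as glucose-6-phosphate. In KP lung adenocarcinoma, tumor cells keep features of alveolar type 2 (AT2) cells, the surfactant-producing cells of the alveolus, and acquire during progression a less differentiated state in which Cldn4, Plaur and other genes of adhesion and wound repair are expressed. Immediate-early genes such as those of the FOS and JUN (AP-1), EGR and KLF families respond within minutes to growth factor or stress signals, and also to tissue dissociation.

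Slc2a1 (ENSMUSG00000028645) is a protein-coding gene of the plus strand at chr4:119108711-119137983 (GRCm38). Per total counts, controls 1 to 5 had 112.48, 93.83, 91.1, 99.74 and 75.69 CPM. Glut1-KO replicates 1, 2 and 3 had 60.25, 45.19 and 34.9 CPM. Replicates 4 and 5 had 85.47 and 101.8 CPM, inside the control range. Just inside the threshold of the rule was replicate 1 at 60.25 CPM and just outside it replicate 4 at 85.47 CPM, with the lowest control at 75.69 CPM between them. After TMM scaling, which corrects library sizes for composition and is used for all CPM values below, the 3 libraries stood at 63.1, 45.8 and 36.5% of the control mean, and the log2 fold change was -1.06 (SE 0.20). As these values chose the libraries, no test is given. A count per gene cannot distinguish full-length transcript from transcript lacking the floxed exons. In bulk tissue, fewer cells of a type cannot be distinguished from less RNA per cell, here or in any result below.

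**Figure D1:**
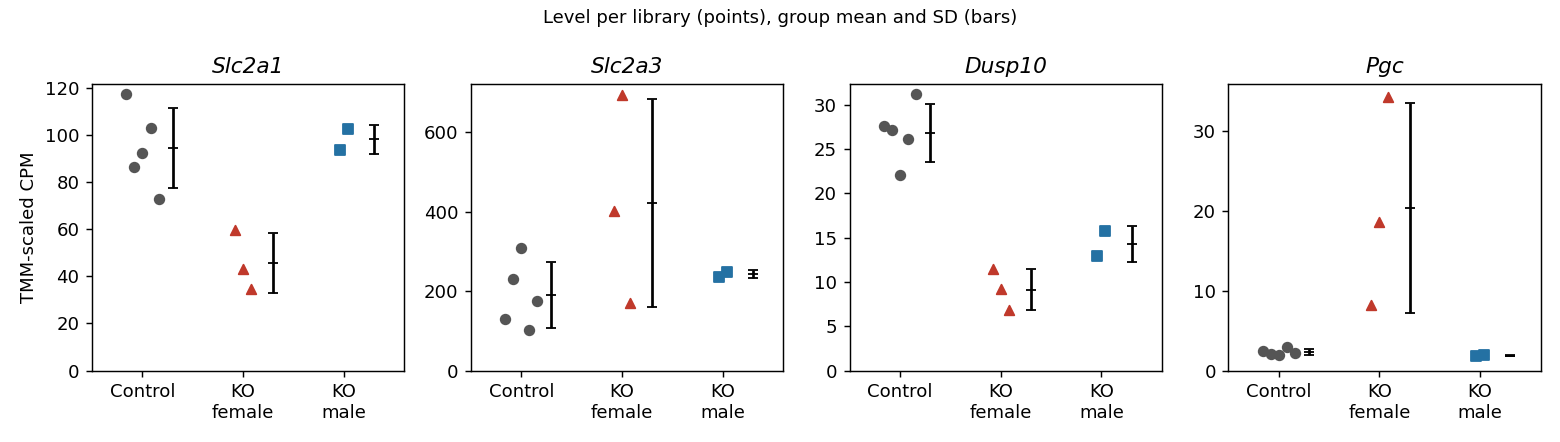
TMM-scaled CPM (linear axes from 0) of Slc2a1, Slc2a3, Dusp10 and Pgc in each control, female Glut1-KO and male Glut1-KO library, with the group mean and SD. The 3 female libraries lie below all controls for Slc2a1 and Dusp10 and above all controls for Pgc, whereas Slc2a3 overlaps between groups at 170 to 692 CPM against 102 to 309 CPM.

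The promoter of the deleted gene and those of 3 genes that were low in the same libraries are shown because each gene leads a result below and because AP-1, the dimer to which Fosl1 contributes, has a short motif that can be searched directly. Sequences are from RefSeq on GRCm38.p6, 250 bases before to 50 after the transcription start, written 5′ to 3′ on the strand of the gene, with capitals marking matches to TGANTCA on either strand.
Slc2a1, chr4:119108495-119108794, plus strand: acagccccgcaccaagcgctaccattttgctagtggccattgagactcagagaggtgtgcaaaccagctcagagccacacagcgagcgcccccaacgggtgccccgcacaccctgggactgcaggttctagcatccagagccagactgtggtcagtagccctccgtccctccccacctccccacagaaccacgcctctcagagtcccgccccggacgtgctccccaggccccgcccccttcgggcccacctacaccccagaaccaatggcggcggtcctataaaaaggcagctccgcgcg
Dusp10, chr1:184034131-184034430, plus strand: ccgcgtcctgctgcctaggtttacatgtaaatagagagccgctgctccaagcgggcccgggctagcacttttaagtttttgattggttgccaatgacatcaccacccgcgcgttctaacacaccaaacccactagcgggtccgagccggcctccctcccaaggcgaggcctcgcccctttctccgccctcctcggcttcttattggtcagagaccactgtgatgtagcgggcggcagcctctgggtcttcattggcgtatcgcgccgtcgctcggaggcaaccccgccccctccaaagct
Cldn4, chr5:134946885-134947184, minus strand: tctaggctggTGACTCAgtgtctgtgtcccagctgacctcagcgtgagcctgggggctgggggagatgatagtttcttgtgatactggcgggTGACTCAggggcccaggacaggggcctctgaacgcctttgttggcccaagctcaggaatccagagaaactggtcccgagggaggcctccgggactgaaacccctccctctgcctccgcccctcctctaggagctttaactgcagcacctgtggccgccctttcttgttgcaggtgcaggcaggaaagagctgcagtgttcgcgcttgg
Plaur, chr7:24462233-24462532, plus strand: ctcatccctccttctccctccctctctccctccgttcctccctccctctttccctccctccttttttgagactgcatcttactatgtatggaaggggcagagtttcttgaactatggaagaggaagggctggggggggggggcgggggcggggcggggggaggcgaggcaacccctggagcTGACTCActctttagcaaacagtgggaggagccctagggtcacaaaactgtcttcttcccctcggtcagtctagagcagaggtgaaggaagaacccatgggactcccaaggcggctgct
The Cldn4 window held 2 matches, which began 240 and 158 bases before the start, and the Plaur window held 1, which began 69 bases before it. The same letters occurred in 7.84% of all 31396 autosomal promoter windows. Of the 14 windows of the 12 matched genes among the 14 leading lower genes below, 1 held the motif (7.14%). Of the 48 windows matched to the stress list, 2 did (4.17%). A match describes letters only and is no evidence of binding.

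To ask which genes differed in tumors with low Slc2a1, the 3 libraries were compared with the 5 controls in a limma fit over all 10 libraries, adjusted over the 17098 genes tested. Of 16295 autosomal genes, 7 passed an adjusted p of 0.05 (0.043%), 4 higher (0.0245%) and 3 lower (0.0184%). At an unadjusted p under 0.05 there were 1302 higher genes (7.99%) and 1012 lower genes (6.21%), together 14.2%, where 815 in all would be expected if no gene differed. All 3 libraries lay above all 5 controls for 706 autosomal genes (4.33%) and below all 5 for 830 (5.09%), together 9.43%. Because the libraries were chosen on Slc2a1 with earlier results known, tests of genes that vary with Slc2a1 are not independent evidence. The number of calls depended strongly on the tool, with 6 higher and 7 lower genes by edgeR's quasi-likelihood test and 282 higher and 409 lower by DESeq2. All 7 limma calls were among those of both other tools. Without any 1 of controls 1, 2 or 5, or without Glut1-KO replicate 3, none of the 7 was called by limma, and without any 1 of the other libraries 1 to 4 of the 7 were.

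Both male Glut1-KO libraries lay on the far side of the controls in the same direction for 139 of the 706 genes above the controls (19.7%) and for 164 of the 830 below them (19.8%). Over all autosomal genes, 8.94% had both males above and 8.3% both below every control. Both males were inside the control range for 180 of the 706 (25.5%) and 242 of the 830 (29.2%), against 42.1% of all autosomal genes. They lay beyond it on the opposite side for 51 (7.22% against 8.3%) and 61 (7.35% against 8.94%). Genes beyond the controls in the female libraries thus included some that were also beyond them in the males and more for which at least 1 male was not. The comparisons of either Glut1-KO group with the controls share those controls.

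The 3 lower genes were Dusp10, Tubb6 and Uhrf2. Dusp10 encodes a phosphatase that inactivates the p38 and JNK stress kinases. It stood at 27.6, 27.2, 22.0, 26.2 and 31.2 CPM in controls 1 to 5 and at 11.4, 9.19 and 6.83 CPM in Glut1-KO replicates 1 to 3, a log2 fold change of -1.58 (SE 0.20, limma adjusted p 0.0346). No control came near the 3 libraries, and replicates 4 and 5, at 12.9 and 15.8 CPM, were also below every control. Tubb6, a β-tubulin, had 38.1, 53.8, 40.8, 39.3 and 42.5 CPM in controls against 22.3, 14.5 and 13.97 CPM in the 3 libraries (log2 fold change -1.37, SE 0.19, limma adjusted p 0.0402). Here replicates 4 and 5 were inside the control range at 43.5 and 42.8 CPM. Uhrf2, a ubiquitin ligase that binds modified DNA and histones, had 57.5, 74.6, 50.2, 72.5 and 63.4 CPM in controls against 31.9, 24.1 and 27.3 CPM in the 3 libraries (log2 fold change -1.19, SE 0.16, limma adjusted p 0.0402), with both males inside the control range at 55.6 and 54.3 CPM.

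Of the 4 higher genes, 3 are pseudogenes. The processed pseudogene Gm12282 (chromosome 11) had 1 to 4 counts in controls and 29 to 53 in the 3 libraries (limma adjusted p 0.0133), and the pseudogene Gm1966 (chromosome 7) 4 to 7 and 32 to 49 counts (limma adjusted p 0.0402). The controls of these 2 genes were below the minimum count of the filter, which Gm12282 passed through the 3 female libraries alone and Gm1966 through the 5 Glut1-KO libraries, so that both were bound to differ if tested at all. With no filter their limma adjusted p-values were 0.0084 and 0.0468. Gm8730 (chromosome 8) was measured at higher depth, with 17.7, 18.97, 13.4, 17.9 and 14.2 CPM in controls against 96.5, 54.5 and 54.4 CPM (log2 fold change 2.01, SE 0.27, limma adjusted p 0.0402), and replicates 4 and 5 at 16.2 and 34.3 CPM. These 3 are pseudogenes, which can share reads with their parent genes, and how the counting treated such reads is not given, so their values are uncertain.

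The next genes by p on the lower side did not pass the threshold, yet each of the 14 leading protein-coding genes of this side lay below all 5 controls in all 3 libraries, as the choice by smallest p favors. Cldn4, a claudin of tight junctions, stood at 186, 161, 119, 189 and 143 CPM in controls against 75.5, 42.1 and 41.6 CPM in the 3 libraries (log2 fold change -1.63, SE 0.23, limma adjusted p 0.0512). The 3 values were below the lowest control, and so was replicate 4 at 111 CPM, while replicate 5 at 145 CPM was not. Hsph1, a cochaperone of the HSP110 family, had 202 to 292 CPM in controls against 139, 127 and 131 CPM in the 3 libraries (log2 fold change -0.91, SE 0.13, limma adjusted p 0.0512), with both males inside the control range. Fosl1, which encodes the AP-1 subunit Fra-1, had 15.6 to 27.5 CPM in controls and 6.11, 5.10 and 5.67 CPM (log2 fold change -1.87, SE 0.28, limma adjusted p 0.0543), with replicates 4 and 5 at 12.6 and 20.9 CPM.

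The remaining genes of this side had varied roles. Abcb1a, a drug efflux pump, had 33.1 to 42.9 CPM in controls, against 17.3 to 19.1 CPM in the 3 libraries and 30.9 and 39.9 CPM in the males. Ywhag, a 14-3-3 protein, had 204 to 253 and 122 to 144 CPM, with 234 and 252 CPM in the males. Tes, a LIM protein of focal adhesions, had 144 to 169 and 68.9 to 108 CPM, and here both males lay above every control at 216 and 206 CPM. Klf2, a zinc-finger transcription factor, had 43.8 to 62.2 CPM in controls, against 25.4, 27.3 and 32.3 CPM in the 3 libraries and 20.5 and 21.7 CPM in replicates 4 and 5, so all 5 Glut1-KO libraries were below the controls. Cdkn2b, which encodes the inhibitor p15 of CDK4 and CDK6, had 26.2 to 42.65 and 8.62 to 15.6 CPM, with 27.6 and 29.5 CPM in the males. Mapk6 (the atypical kinase ERK3), Pitpnc1 (a phosphatidylinositol transfer protein) and Antxr2 (a receptor for extracellular matrix) completed the 14, with log2 fold changes of -0.99, -1.42 and -0.92 and limma adjusted p-values of 0.0899, 0.0706 and 0.0725. Of these 14 genes, 2 had both male Glut1-KO libraries below every control, 6 had both inside the control range and 1 had both above it. Over all autosomal genes tested, 8.3%, 42.1% and 8.94% had the males in these positions, so no pattern is read from the counts.

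On the higher side, Pgc had the largest log2 fold change of the 13 leading genes described here. It encodes progastricsin, a protease precursor of stomach and of alveolar type 2 cells. Controls had 2.40, 2.07, 1.97, 2.89 and 2.15 CPM, the 3 libraries 8.21, 18.6 and 34.3 CPM (log2 fold change 2.94, SE 0.49, limma adjusted p 0.0706), and replicates 4 and 5, at 1.80 and 1.94 CPM, were just below the lowest control. Dpyd, the first enzyme of pyrimidine breakdown, had 1.04 to 5.43 CPM in controls against 15.3, 12.4 and 17.5 CPM in the 3 libraries (log2 fold change 2.68, SE 0.43, limma adjusted p 0.0683). Matn4, a matrilin of the extracellular matrix, had 47.1 to 69.3 and 99.9 to 150 CPM. Ssh1, a phosphatase that activates the actin-severing protein cofilin, had 38.95 to 47.3 and 61.1 to 65.5 CPM, the smallest change among these genes at a log2 fold change of 0.61 (SE 0.10, limma adjusted p 0.0714). In Dpyd, Matn4 and Ssh1 both males were inside the control range.

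Fcer1g, a signaling chain of Fc receptors, and Ctss, a lysosomal protease of antigen-presenting cells, are myeloid genes, and other leukocyte markers are described below. Fcer1g had 0.58, 0.41, 0.62, 0.63 and 0.74 CPM in controls against 1.88, 2.01 and 2.87 CPM in the 3 libraries (log2 fold change 1.92, SE 0.29, limma adjusted p 0.0543). Ctss had 7.01 to 8.69 and 15.03 to 26.45 CPM. Cxcr4, a chemokine receptor, had 4.09 to 6.81 and 13.4 to 22.9 CPM. In these genes replicates 4 and 5 were above every control too, at 1.46 and 1.20 CPM for Fcer1g, 16.3 and 11.8 CPM for Ctss and 7.90 and 10.9 CPM for Cxcr4. Rab3il1, Abca17 and Rasl12 also had both males above the controls, whereas Srms, Efr3b and Lrpap1 did not.

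**Figure D2:**
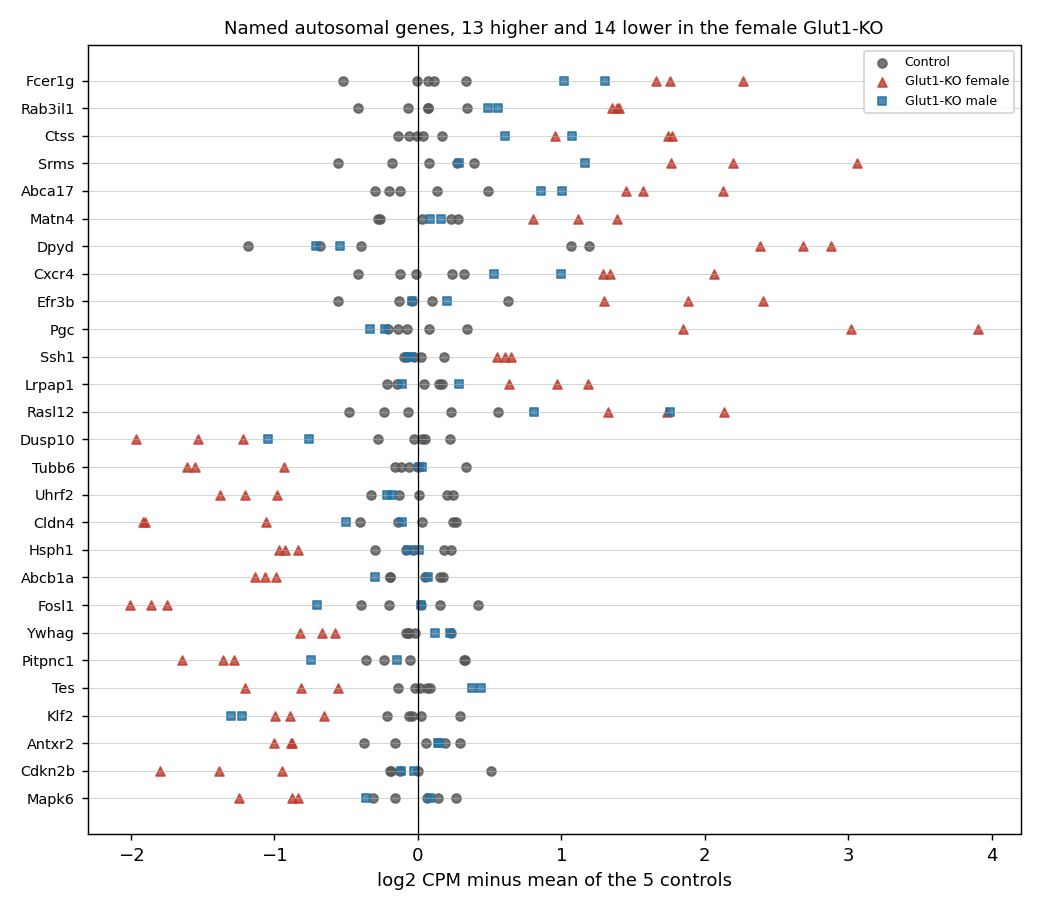
Log2 CPM of each library minus the mean of the 5 controls (voom scale) for 13 higher and 14 lower protein-coding genes of those with the smallest p, one row per gene. All female Glut1-KO triangles lie beyond the control circles, while the male squares lie beyond the controls on the same side for Fcer1g, Ctss, Dusp10 and Klf2 and within them for Matn4, Tubb6 and Uhrf2.

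Whether groups of genes differed together was examined with 28 lists, described by the median log2 fold change and for many also by counts. Over all autosomal genes tested, 50.5% were higher and the median was 0.005. The list of lung epithelium and tumor genes had 5 of 12 members higher and a median of -0.05. Of the list members other than those already named as called, none passed the adjusted threshold. The tumor progression and high plasticity list had 24 of 29 tested members lower, a median of -0.52, and 12 members lower at an unadjusted p under 0.05 (41.4% against 6.21% of all autosomal genes), while 9 lay below all controls (31% against 5.09%). Beside Cldn4 it was led by Plaur, the receptor of urokinase, with 69.9, 52.4, 109, 73.9 and 43.6 CPM in controls against 27.9, 18.99 and 20.6 CPM in the 3 libraries (log2 fold change -1.58, SE 0.30, limma adjusted p 0.103). The lowest control was well above the highest of the 3, and replicates 4 and 5 were inside the control range at 83.0 and 72.6 CPM. Slc4a11, a membrane transporter, had 21.8 to 44.0 and 6.83 to 11.4 CPM, with 36.9 and 16.4 CPM in the males, and Itga2, the collagen-binding integrin subunit α2, 182 to 457 and 118 to 166 CPM, with both males inside the control range. Against the same controls the male libraries had a list median of 0.15, with 18 of 29 members higher, where 49.7% of all autosomal genes were higher.

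The immediate-early and dissociation stress list had 40 of 51 members lower, a median of -0.46, 25 members lower at an unadjusted p under 0.05 (49% against 6.21%) and 22 below all controls (43.1% against 5.09% of all autosomal genes). Dusp10, Hsph1, Fosl1 and Klf2 led it, and Ctgf, a matricellular target of YAP, had 59.2 to 138 CPM in controls and 25.6 to 37.1 CPM. The abundant genes Fos and Egr1 did not separate, with Fos at 1012 to 1485 CPM in controls against 1006 to 1314 CPM, and Egr1 at 1271 to 1841 against 1196 to 1764 CPM. The summed level of the list was 11680 to 14140 CPM in controls and 10270 to 11520 CPM in the female libraries. It was 8958 and 8549 CPM in the males, so every Glut1-KO library was below every control. In the male Glut1-KO libraries 49 of the 51 members were lower, with a median of -0.68, and Fos had 837 and 595 CPM there. Handling of the tissue has no label here, and its part in the result was not tested.

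The list of ATF4 targets and the unfolded protein response had 26 of 31 members lower, a median of -0.28 and 7 members lower at an unadjusted p under 0.05 (22.6% against 6.21% of all autosomal genes). Atf3, a stress-induced transcription factor, had 412, 211, 277, 321 and 325 CPM in controls against 177, 170 and 176 CPM in the 3 libraries (log2 fold change -0.79, SE 0.18, limma adjusted p 0.168), and replicates 4 and 5 were lower still at 133 and 146 CPM. Shmt2, the mitochondrial serine hydroxymethyltransferase, had 49.1 to 81.2 and 31.4 to 48.9 CPM, and Manf, a protein of the endoplasmic reticulum, 52.6 to 109 and 38.8 to 58.4 CPM. In the males this list had a median of 0.29. Of 19 p53-related genes, 14 were lower with a median of -0.15 (-0.27 without control 2 and -0.09 without control 1). Mdm2, the ubiquitin ligase induced by p53, stood at 69.0 to 84.5 CPM in controls, 54.5 to 63.8 CPM in the 3 libraries and 58.4 and 68.6 CPM in the males, whereas Cdkn1a had 84.2 to 112 and 97.5 to 115 CPM.

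Alveolar lists had positive medians. Of 23 AT2 and lamellar body genes, 18 were higher, with a median of 0.32 (0.19 without control 2), and 3 were higher at an unadjusted p under 0.05 (13% against 7.99% of all autosomal genes), while 1 lay above all controls (4.35% against 4.33%). Abca3, which pumps phospholipid into lamellar bodies, had 1394, 1208, 1883, 1682 and 1455 CPM in controls against 2616, 2612 and 2252 CPM in the 3 libraries (log2 fold change 0.72, SE 0.16, limma adjusted p 0.149), all above the highest control, with replicates 4 and 5 within the controls at 1530 and 1350 CPM. Nkx2-1, the lung lineage transcription factor, had 132 to 242 and 234 to 277 CPM, which overlap. Of 18 alveolar type 1 genes 13 were higher, with a median of 0.23 (0.12 without Glut1-KO replicate 1 and 0.15 without control 2). Their median deviation was 0.513, 0.205 and -0.146 in the 3 libraries, overlapping -0.198 to 0.294 in the controls. Ager, a receptor of alveolar type 1 cells, had 468 to 1220 CPM in controls, 1376 to 1705 CPM in the 3 libraries and 688 and 563 CPM in the males, and the basement membrane collagens Col4a3 and Col4a4 had 17.0 to 39.5 against 46.7 to 82.5 CPM and 11.2 to 24.8 against 31.4 to 52.5 CPM. Sema3e went the other way, at 25.3 to 50.1 CPM in controls and 9.65 to 19.4 CPM. Club cell genes (median -0.16 over 22) and ciliated genes (median -0.50 over 17) overlapped widely, as Scgb1a1, the secretoglobin CC10, ran from 1453 to 8706 CPM in controls and from 1396 to 4759 CPM. In the gastric-like list (11 of 25 tested members higher, median -0.18) Pgc was the member with the smallest p, while Onecut2, a transcription factor, had 12.1 to 98.8 CPM in controls against 2.37 to 10.7 CPM in the 3 libraries, and Ctse, a gastric protease, 133 to 589 against 130 to 174 CPM, which overlap.

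Other glucose transporters were examined because they could carry glucose where Glut1 is low. Of 15 listed, 13 were tested, Slc2a1 among them. They showed no common direction, with 7 higher and 6 lower and a median of 0.07 (-0.03 to 0.27 over the alternatives). At an unadjusted p under 0.05, 4 were higher (30.8% against 7.99% of all autosomal genes) and 1, Slc2a1, was lower. Above all controls lay 2 (15.4% against 4.33%). Slc2a3 (Glut3) had 130, 232, 309, 102 and 176 CPM in controls against 402, 692 and 170 CPM in the 3 libraries, and the groups overlapped because replicate 3, which had the lowest Slc2a1, stood within the controls (log2 fold change 1.05, SE 0.46, limma adjusted p 0.341). Replicates 4 and 5 were within them too, at 235 and 249 CPM. The log2 fold change was 0.58 without replicate 2 and 1.59 without replicate 3. Slc2a10 (Glut10) had 8.30 to 17.1 CPM in controls and 25.9, 25.5 and 35.9 CPM, and Slc5a1, the sodium-coupled transporter SGLT1, 0.37 to 2.81 and 4.64, 7.26 and 7.01 CPM. Their log2 fold changes were 1.27 (SE 0.33, limma adjusted p 0.190) and 2.00 (SE 0.61, limma adjusted p 0.229). Both were above all controls in all 3 libraries and in replicate 4 (20.5 and 7.86 CPM), but not in replicate 5 (7.25 and 2.26 CPM).

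Genes of glycolysis showed no common direction, with 16 of 31 higher and a median of 0.03. Hk2, the inducible hexokinase, had 132 to 167 CPM in controls against 114, 104 and 105 CPM in the 3 libraries (log2 fold change -0.47, SE 0.14, limma adjusted p 0.218), below every control, while replicates 4 and 5 had 134 and 195 CPM. Pkm, pyruvate kinase, had 725 to 1477 CPM in controls and 523 to 908 CPM, and Ldhb 34.1 to 126 and 96.1 to 134 CPM. In replicates 4 and 5 glycolytic genes stood higher, with 25 of 31 above the control mean and a median of 0.34, and Pkm had 1620 and 1939 CPM. Hypoxia targets had a median of -0.26 over 23 genes in the 3 libraries and 0.44 in the males. Replicate 1 had a median deviation of 0.103, against -0.289 and -0.261 in replicates 2 and 3, and the list median was -0.06 without replicate 2 or without control 1. Ddit4, an inhibitor of mTORC1, had 78.9 to 131 CPM in controls against 50.8 to 65.4 CPM in the 3 libraries, while Vegfa had 369 to 436 and 468 to 514 CPM.

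Lipid and peroxisome lists had small medians, although in the bile acid and peroxisome list and the PPARα list the median of every Glut1-KO library, male and female, was above that of every control. The fitted male-against-control median of the bile acid and peroxisome list was 0.02, with 26 members higher and 22 lower. Of 48 bile acid and peroxisome genes, 29 were higher with a median of 0.11 (0.06 to 0.15 over the alternatives, the lowest with the replicate block), and 8 were higher at an unadjusted p under 0.05 (16.7% against 7.99% of all autosomal genes). Agps, an enzyme of ether lipid synthesis, had 152 to 186 CPM in controls against 218 to 235 CPM in the 3 libraries (log2 fold change 0.43, SE 0.11, limma adjusted p 0.185). For Agps both males were inside the control range, at 174.2 and 155.5 CPM. Gstk1, a peroxisomal glutathione S-transferase, had 43.5 to 69.1 CPM in controls, 71.5 to 81.0 CPM in the 3 libraries and 122 and 115 CPM in the males. Of 44 genes of PPARα and fatty acid oxidation 29 were higher, with a median of 0.18. At an unadjusted p under 0.05, 8 were higher (18.2% against 7.99%), and 4 lay above all controls (9.09% against 4.33%). Acaa2, the last enzyme of the mitochondrial β-oxidation spiral, had 101 to 144 and 156 to 186 CPM. On the other side, 2 members were lower at an unadjusted p under 0.05 (4.55% against 6.21%) and below all controls (4.55% against 5.09%). Of these PPARα targets, Angptl4, an inhibitor of lipoprotein lipase, had 42.8 to 64.3 against 22.3 to 41.7 CPM (log2 fold change -0.88, SE 0.31). The hormone gene Fgf21 had 0.148 to 0.287 against 0.0241 to 0.121 CPM. That was 6 to 15 counts in controls and 1 to 5 in the 3 libraries, below the filter's minimum of 10, so its difference is uncertain. The medians of oxidative phosphorylation (0.03 over 74 genes), cholesterol synthesis (-0.07 over 22), fatty acid synthesis (0.18 over 17), the pentose phosphate pathway (0.02 over 8), glucose sensing (-0.03 over 7) and proliferation (0.02 over 38) were small. In the males oxidative phosphorylation had a median of 0.30 and cholesterol synthesis of 0.41.

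Markers of cells other than tumor cells were examined because the fractions had been depleted of CD45-positive cells only. None of the leukocyte, macrophage, endothelial, fibroblast or erythroid markers passed the adjusted threshold. Of 24 tested leukocyte genes 22 were higher in the 3 libraries, with a median of 1.09, 13 higher at an unadjusted p under 0.05 (54.2% against 7.99%) and 8 above all controls (33.3% against 4.33%). Ptprc, which encodes CD45 itself, had 2.47, 2.29, 3.25, 3.22 and 2.51 CPM in controls, against 9.94, 8.47 and 6.29 CPM in the 3 libraries and 9.98 and 5.04 CPM in replicates 4 and 5 (female against control: log2 fold change 1.57, SE 0.28, limma adjusted p 0.0913). All 5 Glut1-KO libraries were above all controls for this gene. The summed level of the list, 364 to 509 CPM in controls, 474 to 682 CPM in the 3 libraries and 380 to 535 CPM in the males, overlapped between the groups, and Lcp1 held most of it. Of the lymphocyte markers, Cd3e and Ms4a1 had no more than 4 counts each in any control or female library, whereas Cd79b had 3.68 to 12.9 CPM in controls against 12.2 to 23.4 CPM in the 3 libraries. Cd79a, a B cell gene, had 0.353 to 1.26 CPM in controls against 0.515 to 0.823 CPM in the 3 libraries. Of 24 macrophage and granulocyte genes 17 were higher with a median of 1.06 and 12 were above all controls (50% against 4.33%). C1qb and Csf1r, a complement component and a growth factor receptor of macrophages, had 2.52 to 4.08 against 5.71 to 10.8 CPM and 3.81 to 5.42 against 7.19 to 12.4 CPM. The summed level of that list, 1155 to 11550 CPM in controls against 2323 to 8089 CPM in the 3 libraries, did not separate the groups, and the list includes Lyz2, which AT2 cells also express.

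Endothelial genes were higher in 24 of 25 cases, with a median of 0.88 and 9 at an unadjusted p under 0.05 (36% against 7.99%), but the groups overlapped for every one of them. Their summed level was 273.5 to 844.1 CPM in controls, 539.9 to 1073 CPM in the 3 libraries and 482.2 to 634.2 CPM in the males. Cldn5 had 2.63 to 5.32 and 4.08 to 9.34 CPM, and Erg, an endothelial transcription factor, 2.20 to 10.2 and 6.70 to 15.8 CPM. MHC class II genes were higher in 10 of 10 cases with a median of 1.12, none at an unadjusted p under 0.05, and they also overlapped. H2-Eb1 had 120, 33.6, 337, 174 and 195 CPM in controls and 316, 250 and 434 CPM. The list median moved between 0.57 and 1.45 over the alternatives tried. Interferon response genes (26 of 40 higher, median 0.18, and -0.06 without control 2) included Psmb9, a subunit of the immunoproteasome, at 1.89 to 11.2 against 12.7 to 24.3 CPM, and on the other side the chemokine Cxcl10 at 5.15 to 10.4 against 1.99 to 2.23 CPM, with replicates 4 and 5 at 1.18 and 3.07 CPM. Fibroblast and smooth muscle genes had a median of -0.14 over 25. The part of leukocyte and endothelial RNA in any other gene's difference was not tested.

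The 5 tested erythroid genes, transcripts of red blood cells, had a median of -1.03, which moved between -1.39 and -0.59 over the alternatives tried, the latter without control 3. None passed an unadjusted p under 0.05 (smallest limma adjusted p 0.371), and 3 lay below all controls (60% against 5.09% of all autosomal genes). Hba-a1, an α-globin, had 35.1, 31.7, 177, 45.3 and 32.7 CPM in controls and 25.6, 18.1 and 21.3 CPM, with replicates 4 and 5 at 81.0 and 59.0 CPM. Control 3, at 177 CPM, was far above the other controls. The α-globin genes Hba-a1 and Hba-a2 are near-identical copies, so the split of reads between them is uncertain.

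**Figure D3:**
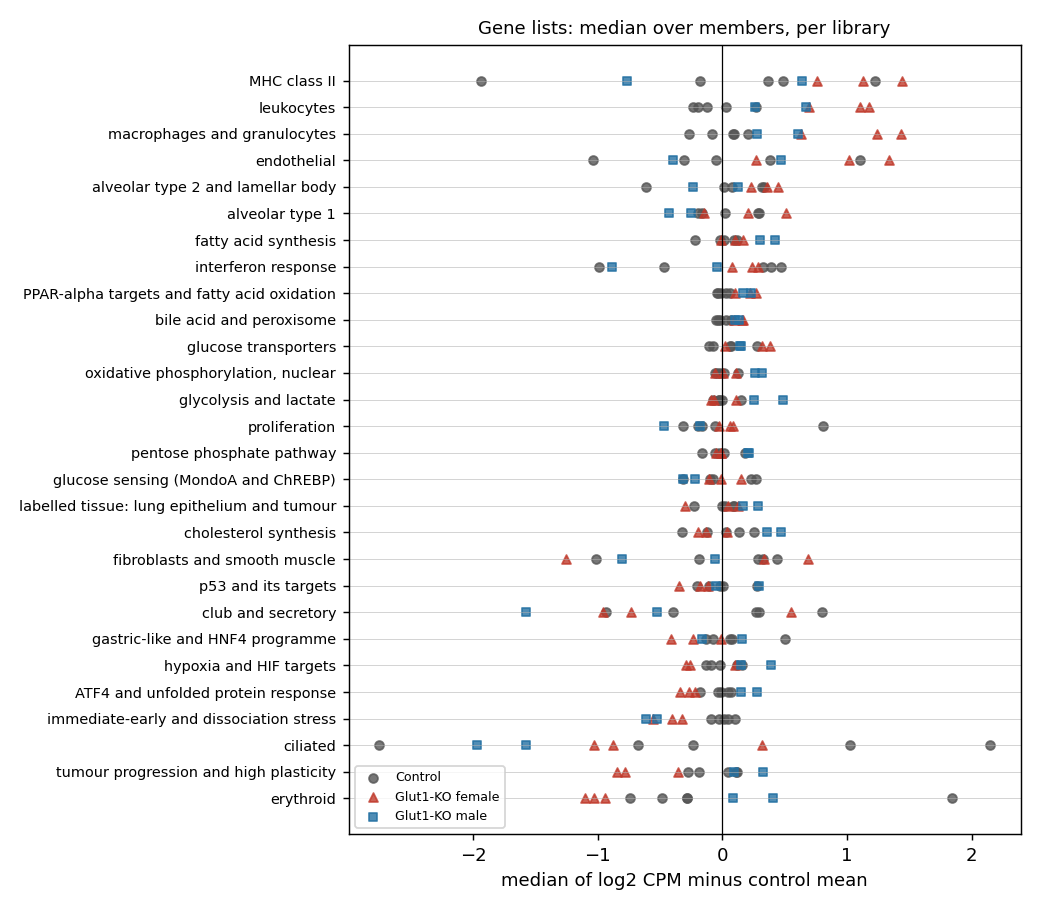
Median over the tested autosomal members of each of the 28 lists of log2 CPM minus the control mean, for each library, ordered by the median log2 fold change of the female Glut1-KO. The female triangles lie left of all controls for the tumor progression, ATF4, stress and erythroid lists and right of all controls for the leukocyte, macrophage, bile acid and peroxisome, and PPARα lists. Both male squares lie on the same side of all controls in the stress, macrophage, bile acid and peroxisome, and PPARα lists, and on the opposite side in the ATF4 list.

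Because Slc2a1 lies on chromosome 4, the position of differing genes was checked. On chromosome 4, 135 of the 1109 genes tested were lower (12.2% against 6.21% of all autosomal genes) and 39 higher (3.52% against 7.99%) at an unadjusted p under 0.05, in all 15.7% against 14.2%. Over the 900 other chromosome 4 genes of at least 1 CPM, the median deviation from the control mean was -0.013, -0.104 and -0.393 in Glut1-KO replicates 1, 2 and 3, between -0.100 and 0.078 in the controls, and -0.002 and -0.067 in replicates 4 and 5. In replicate 3 it was negative in each of the 8 windows of 20 Mb along the chromosome, from -0.161 to -0.504, and it was -0.447 over the 169 genes within 10 Mb of Slc2a1. Slc2a1 itself deviated by -0.65, -1.11 and -1.43 in the 3 libraries, and relative to the chromosome median by -0.633, -1.004 and -1.04, values that describe the gene by which the libraries were chosen. Cdkn2b lies on the same chromosome. DNA copy number was not measured, and the part of a chromosome-wide shift in any of these differences was not tested.

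Shifts of the median were also seen on other autosomes. Chromosomes 9 and 10 had medians of -0.13, -0.174 and -0.197 and of -0.128, -0.209 and -0.246 in the 3 libraries. Both overlapped the controls, of which control 3 had -0.162 on chromosome 9 and control 5 had -0.138 on chromosome 10. At an unadjusted p under 0.05, 124 of 918 genes on chromosome 9 were lower (13.5%) and 36 higher (3.92%), and on chromosome 10 111 of 776 were lower (14.3%) and 26 higher (3.35%). Chromosome 17 had 143 higher (16.7%) and 19 lower genes (2.22%) of 856, with medians of 0.187, 0.051 and 0.288. Chromosome 3 had 122 higher (14.5%) and 21 lower (2.5%) of 841, and chromosome 12 had 72 higher (12.5%) and 7 lower (1.22%) of 574, with medians of -0.062, 0.424 and 0.418 on the latter. Shifts were not limited to the Glut1-KO libraries, as controls ranged from -0.326 to 0.315 on chromosome 12 and control 2 had 0.22 on chromosome 17.

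**Figure D4:**
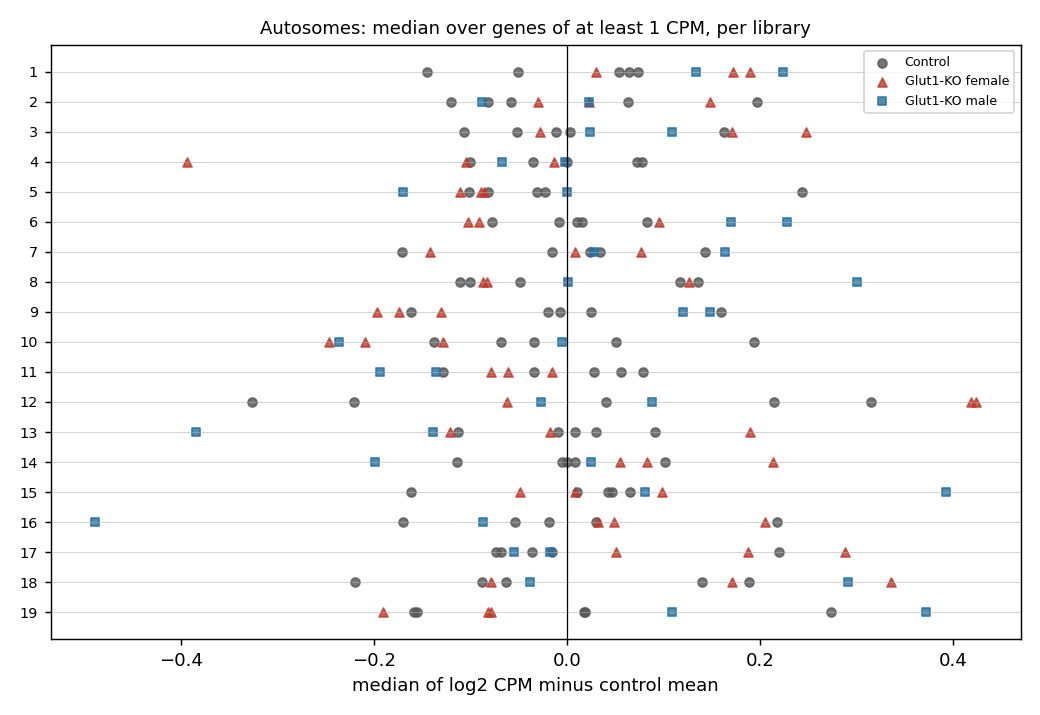
Median over genes of at least 1 CPM of log2 CPM minus the control mean for each autosome (rows) and each library. On chromosome 4 a single female library, replicate 3, stands apart at -0.393, and on chromosomes 9 and 10 the 3 female libraries lie between -0.128 and -0.246 and overlap the controls.

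The males labelled Glut1-KO were compared with the 3 female libraries directly, since both carry the same genotype label but differ in Slc2a1 level and in sex, which cannot be told apart. By limma, 2 autosomal genes passed the adjusted threshold (0.0123%), both lower in the females. Stom, a membrane protein that associates with Glut1, had 95.4 to 111 CPM in controls, 95.0, 70.0 and 76.2 CPM in the 3 female libraries and 180 and 196 CPM in the males (log2 fold change -1.23, SE 0.15, limma adjusted p 0.0255). Lpcat4, a lysophospholipid acyltransferase, had 27.3 to 39.1, 23.2, 17.1 and 16.1, and 56.2 and 53.9 CPM (log2 fold change -1.57, SE 0.21, limma adjusted p 0.0499). In both genes the control values lay between the Glut1-KO groups. Against the controls, the males had 3 autosomal calls (0.0184%), 1 higher (0.00614%) and 2 lower (0.0123%), among them Rps6ka4, a kinase downstream of p38 and ERK, higher at 120 and 137 CPM against 53.6 to 69.0 CPM, and the phosphatase gene Dusp1, lower at 185 and 194 against 358 to 430 CPM. The 3 female libraries had 68.3 to 74.8 CPM of Rps6ka4 and 315 to 345 CPM of Dusp1.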

How the data were processed

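Polyadenylated RNA of CD45-negative tumor fractions was measured in 10 libraries. The authors prepared stranded mRNA libraries and, per the submitters' processing notes, used bcl2fastq 2.17, cutadapt 1.4.2, HISAT2 (genome build mm10) and featureCounts 1.4.4. Strand use and annotation release are not given in the sources used here. The deposited values are raw read counts per Ensembl gene for 39017 genes. The deposited log2 table of the same libraries was not used. Symbols and positions came from GENCODE M21 on GRCm38, which held 96.6% of identifiers.

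Groups came from the labels (5 controls, 3 female and 2 male Glut1-KO). Counts were filtered with edgeR 4.0.16 filterByExpr (minimum count 10, minimum total 15), given TMM factors and passed through voom, with a prior count of 0.5, to limma 3.58.1 in R 4.3.3, where the model held the group alone. The methods of the study name the same tools. Benjamini-Hochberg adjustment covered the 17098 genes that passed the filter (threshold 0.05), and counts are given for 16295 autosomal genes. Fold changes, SEs and p-values are from this fit. The 14 autosomal protein-coding genes with the smallest p on each side (mean of at least 1 CPM, no Gm or Rik models, without Slc2a1), Slc2a1, Slc2a3, up to 4 members per list with the smallest p and the most abundant markers were named. Genes past the threshold and some further list members (Csf1r, Itga2, Ctgf, Cdkn1a, lymphocyte markers) were added after their values were seen. A few genes and 1 allele, among them 1 call of the female and 1 of the male libraries against controls, enter the counts but are not reported here by name. The members and the 28 lists, written from memory, were chosen with earlier results of these data known.

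On simulated counts for the female comparison (17098 genes), 40% of 100 genes changed 2-fold and 88% of 100 genes changed 4-fold were called. The changed genes were drawn only from those above a minimum mean count, and libraries were simulated as independent. These shares therefore do not cover genes with fewer counts. No pair of libraries agreed within counting noise (smallest chi-square per degree of freedom 90.3). Nothing states that libraries came from separate animals, so p-values measure the spread between these libraries. Alternatives were edgeR's quasi-likelihood test, DESeq2 1.42.0, other scalings and filters, 8 libraries alone, the replicate number as a block, the name number as a correlated or summed unit, and each library left out.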

Additional observations from a re-analysis of the deposited data

Results flagged for a closer look

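Chance alone would flag about 1 in 20 groups of values. Over 161 groups of 5 control values, 14 had 1 control far from the other 4, where 8 would be expected by chance. Control 2 stood apart in its total of 49.8 M counts (others 40.1 to 41.4 M), in Tubb6 (53.8 CPM, others 38.1 to 42.5), Ywhag (253.1 CPM, others 203.8 to 212.7) and Decr2 (44.1 CPM, others 32.5 to 33.5), in the proliferation list (median deviation 0.808, others -0.315 to -0.061) and in the medians of chromosomes 5 (0.243), 15 (-0.162) and 17 (0.22). Control 3 stood apart in the globin genes Hba-a1 (177.1 CPM, others 31.7 to 45.3) and Hbb-bs (699.7 CPM, others 113.7 to 191.3), in the erythroid list (median deviation 1.84, others -0.746 to -0.282), and in Egfl7 (24.58 CPM, others 12.1 to 14.9), Txnip (1504 CPM, others 639 to 886) and Cdkn2b (42.65 CPM, others 26.2 to 30.0). Without control 2 neither Tubb6 nor any other of the 7 called genes passed the threshold by limma.

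Between the female and the male libraries labelled Glut1-KO, Stom (log2 fold change -1.234) and Lpcat4 (log2 fold change -1.569) differed by limma's test of the difference itself.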

How the results depend on the processing

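The counts of autosomal calls depended on the processing. They are given for the female libraries against controls (4 higher and 3 lower), male libraries against controls (3) and female against male Glut1-KO (2). edgeR's quasi-likelihood test gave 7 lower genes and 4 genes between the Glut1-KO groups. DESeq2 gave 282 higher and 409 lower genes, 379 in males and 1194 between the Glut1-KO groups. Library totals in place of TMM gave 0 lower genes, 0 in males and 1 between the Glut1-KO groups, and DESeq2's size factors gave 1 for the last. No filter gave 1 lower gene, 0 in males and 1 between the Glut1-KO groups, and a minimum mean of 1 CPM gave 1 higher gene and 9 between the Glut1-KO groups. With the 8 libraries alone 1 lower gene was called. With the replicate number as a block there were 0 higher genes, 1 lower gene, 0 in males and 0 between the Glut1-KO groups. Same-numbered control and female libraries had correlations of their deviations of 0.149, 0.022 and -0.104. Libraries of unlike number were not compared in this way, so these values cannot decide whether the numbers pair them. With the name number as a correlated unit (consensus correlation -0.149) there were 28 higher and 19 lower genes, 28 in males and 10 between the Glut1-KO groups, and with counts summed by name number 1 higher gene, 1 in males (a lone sum, assumed to vary like the others) and 7 between the Glut1-KO groups. Leaving out 1 library at a time gave 0 to 12 higher genes, 0 to 5 lower genes, 0 to 3 in males and 0 to 5 between the Glut1-KO groups. Where 1 male library was left, it was assumed to vary like the other groups. The causes of these shifts were not tested.

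All 32 genes followed through 20 alternatives kept their direction wherever they were fitted (638 values). All but Slc2a3 were chosen by their p in these same libraries, so a kept direction was favored in advance and nothing is read from it. Of the called genes, Dusp10 and Gm8730 kept their call in 8 of 20 alternatives and Tubb6 and Uhrf2 in 6 of 20. Gm12282 kept its call in 13 of 19 and Gm1966 in 6 of 19. Both were bound to differ if tested, so nothing is read from their kept calls. The medians of 16 of the 28 lists kept their sign in all alternatives, among them the tumor progression (-0.72 to -0.43), stress (-0.52 to -0.41), ATF4 (-0.33 to -0.22), leukocyte (0.98 to 1.28), macrophage (0.84 to 1.39) and endothelial (0.61 to 1.21) lists. Those of the other 12 changed sign in at least 1, such as proliferation (in 9), glycolysis and pentose phosphate (in 4 each), glucose sensing (in 3), ciliated (-1.41 to 0.084) and interferon (-0.06 to 0.35), so no direction is read from them. In the simulation, which changed only genes above a minimum mean count, 40% of 2-fold changes were called. Changes of that size could therefore be missed at this number of libraries.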
